A study of Mus musculus with 8 samples.

Results

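Nuclear genes of the respiratory chain and the ATP synthase were followed through an siRNA experiment on CnAβ1, one of the splice forms of calcineurin Aβ, which the gene Ppp3cb encodes. Calcineurin is a phosphatase activated by calcium and calmodulin. All samples were cells of the pluripotent mouse line R1 grown as embryoid bodies, aggregates in which such cells differentiate. They had been transfected with a control siRNA (Control, 3 arrays) or with either of 2 siRNAs against CnAβ1 (siRNA 1, 3 arrays; siRNA 2, 2 arrays), and their total RNA, taken 48 h after transfection and after 48 h in embryoid bodies, was hybridised to 1-colour Agilent arrays. The series title names mesoderm as the fate toward which the cells were differentiated. Members were the genes whose symbol starts with Ndufa, Ndufb, Ndufc, Ndufs, Ndufv, Uqcr, Cox4, Cox5, Cox6, Cox7, Cox8 or Atp5, or is Sdha, Sdhb, Sdhc, Sdhd or Cyc1. These were 94 of the 32530 genes on the array, read by 125 of its 39429 probes. By symbol, 37 belong to complex I, 4 to complex II, 9 to complex III, 18 to complex IV and 17 to the ATP synthase. The other 9 were taken by their names alone and are not subunits: the complex I assembly factors Ndufaf1 to Ndufaf8, and Ndufa4l2.

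The respiratory chain lies in the inner mitochondrial membrane. Complexes I and II pass electrons from NADH and succinate to ubiquinone, complex III passes them to cytochrome c, and complex IV passes them to oxygen. Complexes I, III and IV pump protons as they do so, and the ATP synthase uses the return of the protons to make ATP. Most subunits are encoded in the nucleus and are needed in nearly every cell, whereas several small subunits of complex IV come in paired isoforms, one found in most tissues and one restricted to heart and skeletal muscle, testis or lung. None of the 13 mitochondrially encoded subunits matched a probe by symbol, so the values concern the nuclear genes alone.

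The upstream sequences of these genes share features that the choice by symbol did not use. In windows from 250 bases before to 50 bases after the start of transcription (RefSeq, GRCm38.p6), 76 of the 94 members were found, in 81 windows. The core of the nuclear respiratory factor 1 site was in 22 of these windows (27.2%), against 8.57% of the windows of all protein-coding genes. The core that ETS factors such as GABP bind (CCGGAAG) was in 19 (23.5%, against 11.6%), and the YY1 core (AAGATGGCG) was in 8 (9.88%, against 1.83%). A site for estrogen-related receptors (TNAAGGTCA) was in 3 (3.7%, against 1.03%). The letters were searched on both strands, matches may overlap, and a match says only that the letters are there. At least one of the first 3 motifs was in 51.9% of member windows and in 19.7% of windows of protein-coding genes. By complex, that share was 51.4% for complex I, 61.1% for the ATP synthase and 23.1% for complex IV (3 of 13 windows). Complexes II and III had only 3 and 5 windows. The NRF1 core was in 7.69% of complex IV windows and the ETS core in 11.4% of complex I windows, both near the shares of protein-coding genes. The 80 bases before the start are shown for 6 members, with matches in capitals (the ETS core appears in its reverse complement, CTTCCGG): the complex I subunit Ndufv2 and the complex II subunit Sdha with NRF1 cores, the ATP synthase subunits Atp5h (ETS) and Atp5g2 (NRF1), and 2 complex IV isoforms described below, the ubiquitous Cox6a1 of subunit 6a (ETS) and the heart and muscle Cox8b of subunit 8.
Ndufv2, chr17:66101560-66101639, minus strand: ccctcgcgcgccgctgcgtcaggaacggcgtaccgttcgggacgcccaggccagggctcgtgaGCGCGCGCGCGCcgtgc
Sdha, chr13:74350241-74350320, minus strand: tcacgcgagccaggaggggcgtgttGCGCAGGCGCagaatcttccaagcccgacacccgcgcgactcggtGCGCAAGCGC
Atp5h, chr11:115419920-115419999, minus strand: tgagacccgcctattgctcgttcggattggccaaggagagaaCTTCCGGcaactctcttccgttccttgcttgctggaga
Atp5g2, chr15:102671048-102671127, minus strand: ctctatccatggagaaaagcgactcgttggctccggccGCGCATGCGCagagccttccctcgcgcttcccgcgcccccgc
Cox6a1, chr5:115348959-115349038, minus strand: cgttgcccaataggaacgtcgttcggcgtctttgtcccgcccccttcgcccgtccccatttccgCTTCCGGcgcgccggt
Cox8b, chr7:140900447-140900526, minus strand: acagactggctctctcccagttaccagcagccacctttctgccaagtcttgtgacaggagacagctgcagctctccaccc
The Cox8b stretch holds no capitals. None of the 4 windows found for tissue isoforms of complex IV (Cox6b2, Cox7a1, Cox7b2 and Cox8b) held an NRF1, ETS or YY1 core, against 3 of 9 windows of the other complex IV subunits. The MEF2 core, a site of muscle genes that was searched after the values were seen, was also in none of the 4, and it was in 3.47% of the windows of protein-coding genes.

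The arrays were alike in brightness: their 75th percentiles of processed signal ranged from 838.9 to 1033, and 68.0% to 75.1% of the 43020 non-control spots read well above background. Having 8 arrays limits the precision. Values are given as log2 signal minus the array's 75th percentile, so that 0 is that percentile and a step of 1 is a doubling. Whether replicates came from separate cultures is not in the labels, and p-values therefore reflect the spread among these arrays only, which may be technical. Ppp3cb, read by 1 probe whose place relative to the CnAβ1 variant the files do not give, was at 0.74, 0.52 and 0.62 in Control, at 0.18, 0.39 and 0.60 in siRNA 1, and at 0.41 and 0.62 in siRNA 2. The siRNA arrays overlapped with Control, and the fitted difference of both siRNAs from Control was -0.17 ± 0.12 (SE; limma, adjusted p = 0.9998). The arrays lay on 3 slides, each of which was a scan of its own. Slide 1 held replicate 1 of every group, slide 2 held no siRNA 2 array, and all Control arrays lay in the first position of their slide, all siRNA 1 arrays in the second and both siRNA 2 arrays in the third, so position and group cannot be told apart. Pluripotency genes were expressed throughout (all 10 of the list well above background on every array), as were 4 of the 6 mesoderm genes. In these bulk samples, fewer cells of a type and less RNA per cell cannot be told apart.

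Across the siRNA groups most transcripts of the respiratory chain stayed close to their Control values. Of the 94 members, 93 were tested and were well above background on all 8 arrays, and none changed at a Benjamini-Hochberg adjusted p under 0.05 in limma for both siRNAs together, for siRNA 1, for siRNA 2 or between the siRNAs. The background was the same: 0 of 22422 genes passed in each of these comparisons (percent called 0). At an unadjusted p under 0.05, 0 members and 3.58% of all genes were taken for both siRNAs, 1 member and 3.51% of genes for siRNA 1, 0 members and 3.36% of genes for siRNA 2, and 0 members and 3.3% of genes between the siRNAs. The median log2 difference of the members was 0.019 for both siRNAs, 0.017 for siRNA 1 and 0.025 for siRNA 2, and that of all tested genes was 0.0076, 0.024 and -0.00026. The 95% interval of the difference for both siRNAs lay within a 1.5-fold change in either direction for 89 of 93 members (95.7%), against 75.5% of all genes. The other 4 members were Cox6a2 and Cox6b2 of complex IV, and Ndufa4l2 and Ndufaf8, which are not subunits. A difference beyond 0.2 was fitted for 3 of 93 members and for 14.45% of all genes.

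The direction of these small medians was not stable. For both siRNAs, 64 of 93 members (68.8%) had a positive difference under the main scaling, against 53.0% of all tested genes. That share of all genes also stands beside the counts by complex below. For siRNA 1 the shares were 60.2% of members and 58.3% of all genes, and for siRNA 2 69.9% and 49.9%. The members' count for both siRNAs was 36 under quantile normalization (median -0.010) and 38 after normexp correction with quantile normalization (median -0.0064). Without the Control 1 array there were 78 positive differences (median 0.061), without Control 2 there were 43 (median -0.0057), and without Control 3 there were 46. The members also varied little. Their median residual SD across the 8 arrays was 0.092, against 0.171 for all tested genes and 0.111 for the genes whose mean lay above the 75th percentile, a range that held 86 of the 93 members.

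**Figure D1:**
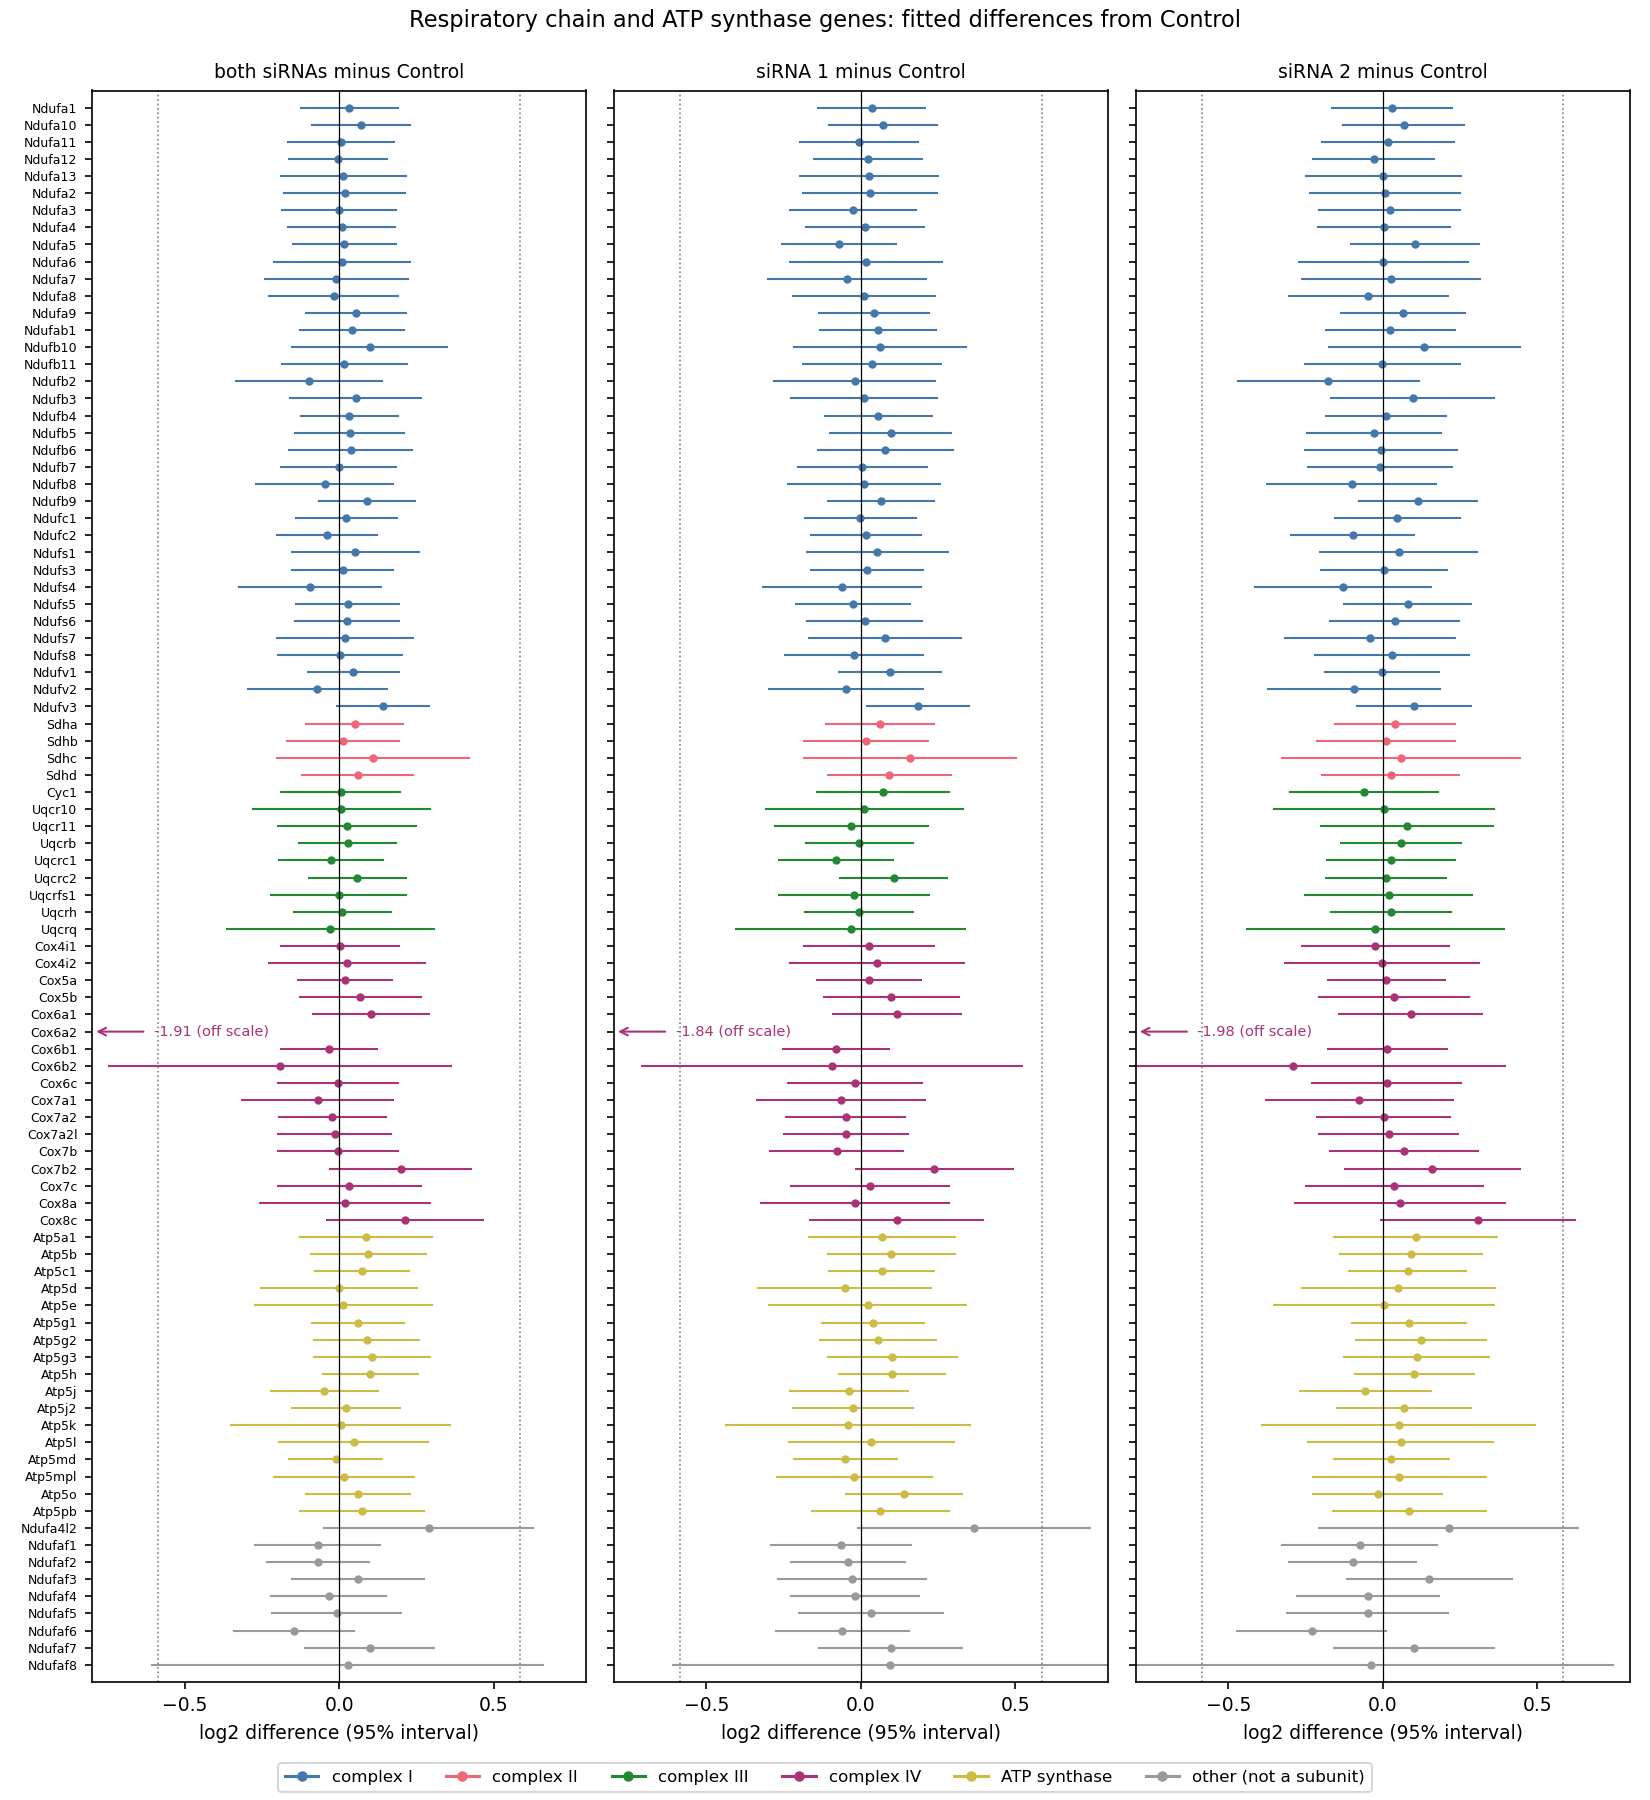
Fitted log2 difference from Control (x axis) with its 95% interval for 92 of the 93 tested members (y axis), coloured by complex, for both siRNAs, siRNA 1 and siRNA 2. Dotted lines mark a 1.5-fold change; Cox6a2, with fitted differences of -1.91, -1.84 and -1.98, lies off the scale, and nearly all intervals for both siRNAs lie between the lines. Intervals that reach past the axis are cut at its end.

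Complex I, the NADH dehydrogenase, had differences from -0.10 to 0.14 for both siRNAs over its 37 members, with a median of 0.017 and 27 positive values, or 14 under quantile normalization. Its member with the smallest p was Ndufv3, an accessory subunit of the NADH-oxidising flavoprotein part. Ndufv3 was at 5.04, 5.02 and 5.10 in Control, at 5.24, 5.26 and 5.21 in siRNA 1, and at 5.14 and 5.17 in siRNA 2. All 5 siRNA arrays thus lay above all 3 Control arrays. The difference was 0.14 ± 0.06 (SE) for both siRNAs and 0.18 ± 0.07 for siRNA 1, where limma's unadjusted p of 0.0335 was the only one under 0.05 among the members, and the adjusted p was 0.9998 for both siRNAs. Ndufb9, a subunit of the membrane arm, differed by 0.09 ± 0.07, with overlapping groups. The lowest fitted value for siRNA 2 among the subunits of complex I was that of Ndufb2, another membrane arm subunit, at -0.18 ± 0.12. Ndufb2 was at 3.19, 3.16 and 3.09 in Control, at 2.95 and 3.00 in siRNA 2, and between 2.96 and 3.34 in siRNA 1. Both siRNA 2 arrays were below Control, but the siRNA 1 arrays lay on both sides of it. Ndufa5 and Ndufc2, subunits of the peripheral arm and of the membrane arm, differed between siRNA 2 and siRNA 1 by 0.17 ± 0.09 and -0.11 ± 0.08, and neither passed the test. Ndufv1, Ndufv2 and Ndufs1, which form the NADH-oxidising part and carry its flavin and iron-sulfur clusters, differed by 0.05 ± 0.06, -0.07 ± 0.10 and 0.05 ± 0.09 for both siRNAs. Ndufa4, kept here by its name although its protein is now placed with complex IV, differed by 0.008 ± 0.07.

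Complex II, succinate dehydrogenase, is the member of the chain that also serves the citric acid cycle, and all its subunits are nuclear. All 4 genes had positive differences for both siRNAs, with a median of 0.055, and none passed the test. Under quantile normalization 3 of the 4 were positive. The flavoprotein Sdha was at 3.66, 3.73 and 3.77 in Control, at 3.83, 3.73 and 3.79 in siRNA 1, and at 3.77 and 3.75 in siRNA 2. The iron-sulfur subunit Sdhb was at 4.76, 4.62 and 4.60 in Control, between 4.65 and 4.72 in siRNA 1, and at 4.75 and 4.60 in siRNA 2. Both genes overlapped between the groups. The membrane anchor Sdhc was at 2.96, 2.49 and 3.00 in Control, at 3.07, 2.93 and 2.92 in siRNA 1, and at 2.84 and 2.90 in siRNA 2. By this probe Control 2 was the lowest array for Sdhc, and the difference of 0.11 ± 0.13 (SE) became -0.06 without that array. By the other tested probe of Sdhc, siRNA 1 replicate 2 was the lowest array (2.33, with Control 2 at 2.37), and the difference was 0.04. The second anchor, Sdhd, was at 4.23, 4.07 and 4.24 in Control and between 4.19 and 4.33 in the siRNA arrays, a difference of 0.06 ± 0.08. Without Control 2, 2 of the 4 genes had a positive difference (median -0.001).

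Complex III, the cytochrome bc1 complex, had differences from -0.03 to 0.06 for both siRNAs over its 9 members, 6 of them positive, or 2 under quantile normalization. The values with the smallest p were those of Uqcrc2, a core protein (0.06 ± 0.07, SE), and Uqcrb, a ubiquinone-binding subunit (0.03 ± 0.07). Uqcrc1, the other core protein, was at 3.67, 3.61 and 3.53 in Control, at 3.47, 3.60 and 3.50 in siRNA 1, and at 3.63 and 3.64 in siRNA 2. Its siRNA 1 arrays lay below the middle Control array and its siRNA 2 arrays within the Control range, and the differences of -0.08 ± 0.08 and 0.03 ± 0.09 did not pass the test. Cyc1, the cytochrome c1 that hands electrons on to cytochrome c, differed by 0.006 ± 0.08 for both siRNAs.

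Complex IV, cytochrome c oxidase, had 9 of 17 positive differences for both siRNAs, with a median of 0.0016, or 4 of 17 under quantile normalization and 14 of 17 without Control 1. It held the members that stood apart from the others, and they did so on 1 array. Cox6a2, the heart and skeletal muscle isoform of subunit 6a, was at 0.55 on Control 1, and at -4.17 and -4.29 on the other Control arrays. It was at -4.79, -4.39 and -4.23 in siRNA 1 and at -4.60 and -4.64 in siRNA 2. On Control 1 the processed signal was 1363, against 31.3 to 52.9 on the other 7 arrays, which is 32.0-fold over their mean on the log2 scale. The other 7 arrays lay within a narrow band and Control 1 lay far above them. Cox8b, the heart and skeletal muscle isoform of subunit 8, was at -1.21 on Control 1 with a processed signal of 400. It was not well above background on any of the other 7 arrays, where it was between -8.43 and -7.65, and Control 1 was at least 33.8-fold above the lowest signal that counted as well above background on those arrays. Cox8b was the member that was not tested. Cox7a1, the heart and muscle isoform of subunit 7a, was at 1.66 on Control 1 and between 1.26 and 1.44 elsewhere, 1.23-fold over the mean of the other arrays.

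The fitted difference of Cox6a2 from Control was -1.91 ± 1.09 (SE) for both siRNAs, -1.84 ± 1.21 for siRNA 1 and -1.98 ± 1.35 for siRNA 2, none past the threshold, and it rested on Control 1. Without that array it was -0.24 for siRNA 1 and -0.39 for siRNA 2. The 95% interval for both siRNAs ran from -4.48 to 0.65. The isoforms found in most tissues showed no step of this size. Cox6a1 was at 7.10 on Control 1, the lowest of the 8 arrays, and between 7.14 and 7.35 on the others. Cox8a was at 6.41 on Control 1 and between 5.997 and 6.30 on the others, and Cox7a2 was at 4.44 on Control 1 and between 4.26 and 4.40 on the others. Like Cox7a1, Cox8a and Cox7a2 were thus highest on Control 1 by small margins.

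Most of the muscle marker list was highest on Control 1, as were Cox6a2 and Cox8b. Of its 7 genes, 5 had their highest value on Control 1: Tnnt2, cardiac troponin T (-0.39, against -7.97 to -5.48 elsewhere), Myh6 and Myh7, the cardiac myosin heavy chains (2.02-fold and 2.23-fold over the mean of the other arrays), Actn2, sarcomeric actinin (1.90-fold), and Ckm, muscle creatine kinase (1.96-fold). Myod1 and Myog, the regulators that define skeletal muscle, were not highest there. The summed level of the list, in units of the array's 75th percentile, was 9.17 on Control 1, 3.46 and 3.73 on the other Control arrays, 4.03 to 4.34 in siRNA 1 and 4.62 to 4.97 in siRNA 2, and 5 of the 7 genes were well above background on every array. Among the 22422 tested genes, 8 lay over 4-fold above every other array on Control 1, and 0 did so on any of the other 7 arrays. That count leaves out genes seen on a single array, since a tested gene had to be well above background throughout a group. Over all probes, with no such filter, 26 lay over 4-fold above every other array on Control 1, 21 on Control 2, 8 on Control 3, 7, 31 and 5 on the siRNA 1 arrays, and 8 and 13 on the siRNA 2 arrays. Among the 8 tested genes Cox6a2 had the widest gap. The other 7, named after their values were seen, were Myl2, Myl3, Actc1, Tcap, Tnni3, Mybpc3 and Nppa, all known as genes of heart muscle. What part muscle cells or their RNA had in the Control 1 values was not tested.

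**Figure D2:**
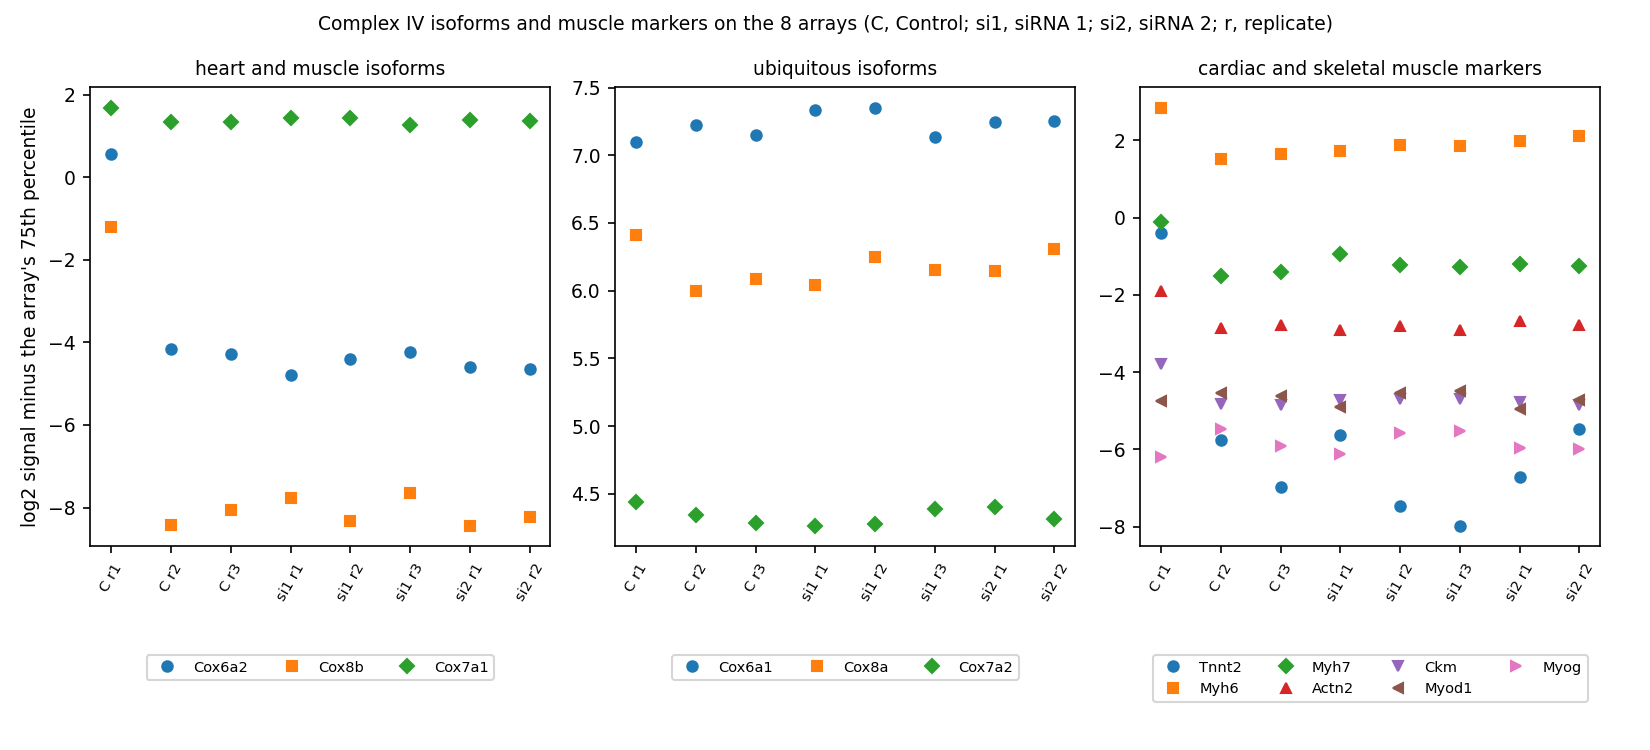
Log2 signal minus the array's 75th percentile (y axis, different range in each panel) on the 8 arrays (x axis) for the heart and muscle isoforms Cox6a2, Cox8b and Cox7a1, for their ubiquitous counterparts Cox6a1, Cox8a and Cox7a2, and for the muscle marker list. Cox6a2, Cox8b and Tnnt2 are high on Control 1 alone, and Cox6a1 is at its lowest there.

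The remaining isoforms of complex IV did not pass the test either. Cox4i1, found in most tissues, and Cox4i2, known from lung and for its response to hypoxia, differed by 0.0016 ± 0.08 (SE) and 0.03 ± 0.11 for both siRNAs. Cox5a and Cox5b, 2 distinct nuclear subunits, differed by 0.02 ± 0.06 and 0.07 ± 0.08. Cox6b1 and its testis isoform Cox6b2 differed by -0.03 ± 0.07 and -0.19 ± 0.23. Cox6b2 ranged from 0.51 to 1.40 over the arrays, with Control 1 the highest. Cox7b differed by -0.005 ± 0.08 and Cox6c by -0.004 ± 0.08. Cox7a2l, which takes part in joining complexes III and IV, differed by -0.01 ± 0.08. Cox8c, a testis isoform, was at -3.62, -3.65 and -3.79 in Control, at -3.51, -3.77 and -3.44 in siRNA 1, and at -3.26 and -3.50 in siRNA 2. Both siRNA 2 arrays were above Control and those of siRNA 1 overlapped with it. The difference of Cox8c was 0.21 ± 0.11 for both siRNAs and 0.31 ± 0.13 for siRNA 2, and 0.19 ± 0.13 between the siRNAs, none past the threshold.

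The ATP synthase had a median of 0.061 for both siRNAs, with 14 of 17 members positive. None of the 17 passed the test, and the count fell to 9 of 17 (median 0.0037) under quantile normalization and to 7 of 17 (median -0.0046) with normexp correction and quantile normalization together. Atp5h, subunit d of the stalk that holds the catalytic head in place, was at 6.03, 6.0 and 5.96 in Control, at 6.11, 6.15 and 6.03 in siRNA 1, and at 6.10 and 6.09 in siRNA 2. All 5 siRNA arrays were above the 3 Control arrays, although siRNA 1 replicate 3 and Control 1 were nearly equal, and the difference was 0.10 ± 0.07 (SE), or -0.0046 with both settings changed. The other tested probe of Atp5h did not separate the groups. It was at 5.66, 5.39 and 5.36 in Control, at 5.76, 5.34 and 5.47 in siRNA 1, and at 5.64 and 5.40 in siRNA 2, a difference of 0.05. The 3 genes Atp5g1, Atp5g2 and Atp5g3 encode the same mature subunit c, the rotating ring, and differ in their import sequences. Their differences were 0.06 ± 0.06, 0.09 ± 0.07 and 0.11 ± 0.08. Atp5g3 was at 5.98, 6.20 and 6.03 in Control and between 6.10 and 6.23 in the siRNA arrays, so the groups overlapped, and its difference was -0.00060 with normexp correction and quantile normalization. Atp5a1 and Atp5b, the subunits of the catalytic head, differed by 0.09 ± 0.09 and 0.09 ± 0.08. Atp5o, which joins the head to the stalk, was lower in siRNA 2 than in siRNA 1 by a fitted -0.16 ± 0.09, which did not pass the test.

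**Figure D3:**
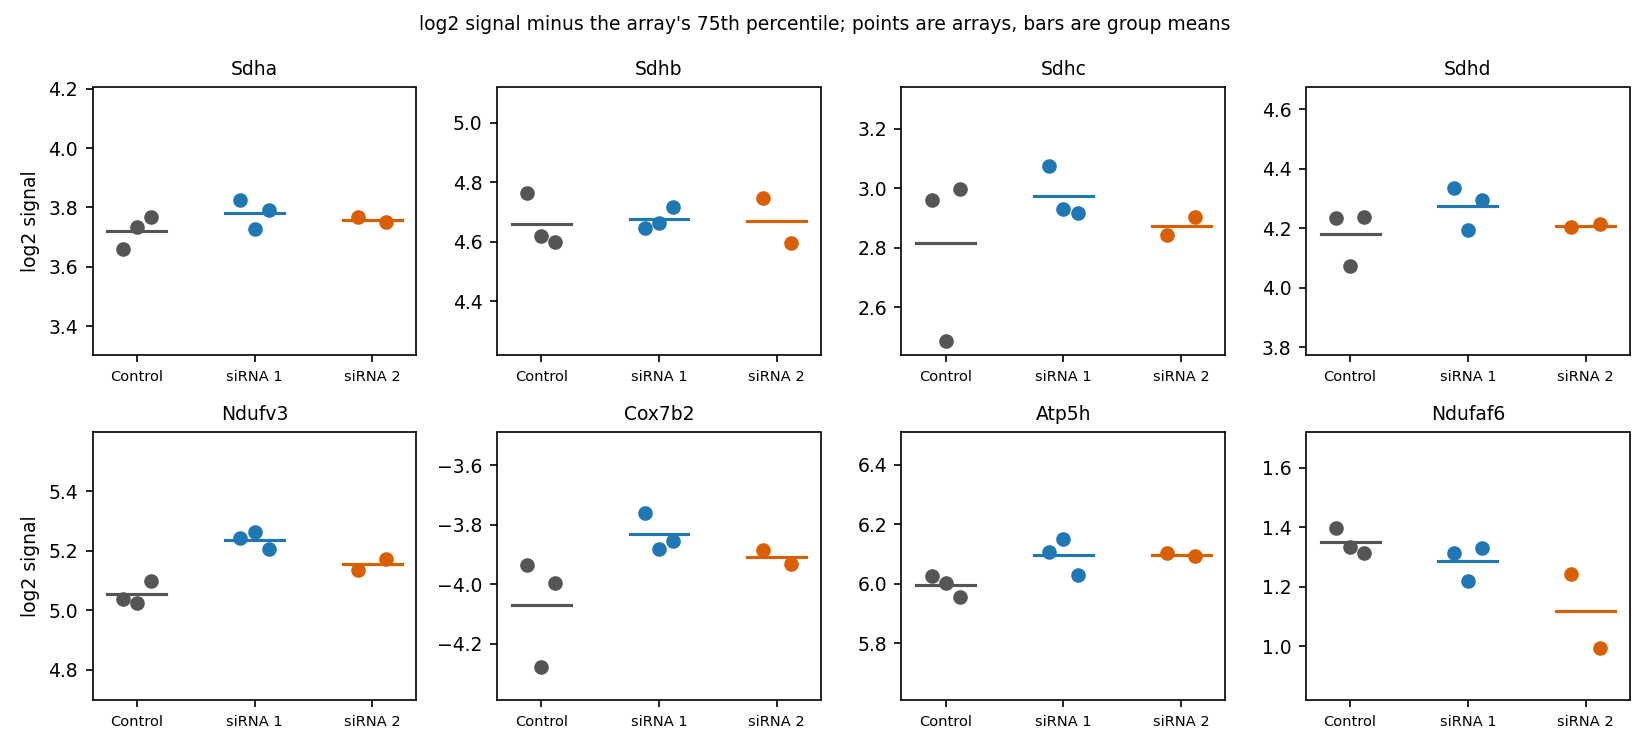
Log2 signal minus the array's 75th percentile (y axis) by group (x axis) for the 4 Sdh genes of complex II and for Ndufv3, Cox7b2, Atp5h and Ndufaf6. Points are arrays, bars are group means, and each panel spans 0.9 on the log2 scale. Each gene is drawn by its probe with the highest mean. All 5 siRNA arrays lie above the 3 Control arrays for Ndufv3, Cox7b2 and Atp5h, and the lowest point of Sdhc is Control 2. The other probes of Atp5h and Sdhc, not drawn, do not show this.

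In all, the 5 siRNA arrays lay above the 3 Control arrays for 3 of 93 members (3.23%) and for 2.48% of all genes, and below them for 0 members and 0.982% of all genes. These were Ndufv3, Atp5h (by the probe used, but not by its other probe) and Cox7b2, a testis isoform of a complex IV subunit. Cox7b2 was at -3.94, -4.28 and -4.00 in Control, between -3.88 and -3.76 in siRNA 1, and at -3.89 and -3.93 in siRNA 2, and its difference was 0.20 ± 0.10 (SE; adjusted p = 0.9998). The margin between the highest Control array and the lowest siRNA array was small against the spread of the Control arrays, whose SD was 0.18. The share of members with separate groups was near the background. The siRNA 1 arrays and the siRNA 2 arrays lay on opposite sides of the Control mean for 6 of 93 members (6.45%) and for 4.53% of all genes.

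Among the genes taken by name that are not subunits, Ndufa4l2, a relative of Ndufa4 known as a hypoxia-induced gene, had the largest positive difference for siRNA 1. It was at -2.15, -1.76 and -2.08 in Control, at -1.39, -1.68 and -1.83 in siRNA 1, and at -1.66 and -1.91 in siRNA 2, a difference of 0.37 ± 0.16 (SE) for siRNA 1. Its groups overlapped at the Control 2 array. Ndufaf6, an assembly factor of complex I, was at 1.40, 1.33 and 1.31 in Control, between 1.22 and 1.33 in siRNA 1, and at 1.24 and 0.99 in siRNA 2. Both siRNA 2 arrays were below Control, by -0.23 ± 0.10 in the fit, and differed from siRNA 1 by -0.17 ± 0.10. Ndufaf3, another assembly factor, differed between the siRNAs by 0.18 ± 0.11. Ndufaf8, also an assembly factor, varied most within groups, with values from -1.87 to -0.64 over the 8 arrays and an SE of 0.27. None of these passed the test.

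Control 1 also differed from the other Control arrays over the members as a whole. Against the mean of Control 2 and Control 3, 83 of 93 members were higher on Control 1, with a median of 0.09, while 42.5% of all genes were higher, with a median of -0.05. The median was 0.08 for complex I, 0.12 for complex II, 0.11 for complex III, 0.18 for complex IV and 0.08 for the ATP synthase. The gap between the members' median and that of all genes was 0.14 under the main scaling, 0.03 under quantile normalization, 0.07 with normexp correction and quantile normalization together, and 0.14 without background correction. Median scaling, which shifts all genes of an array alike, moved the median of all genes on this comparison from -0.05 to 0.16. Control 1 was the highest array for 28 of 93 members (30.1%) and for 13.2% of all genes. Control 2 was the lowest for 31 members (33.3%) and for 15.2% of all genes.

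**Figure D4:**
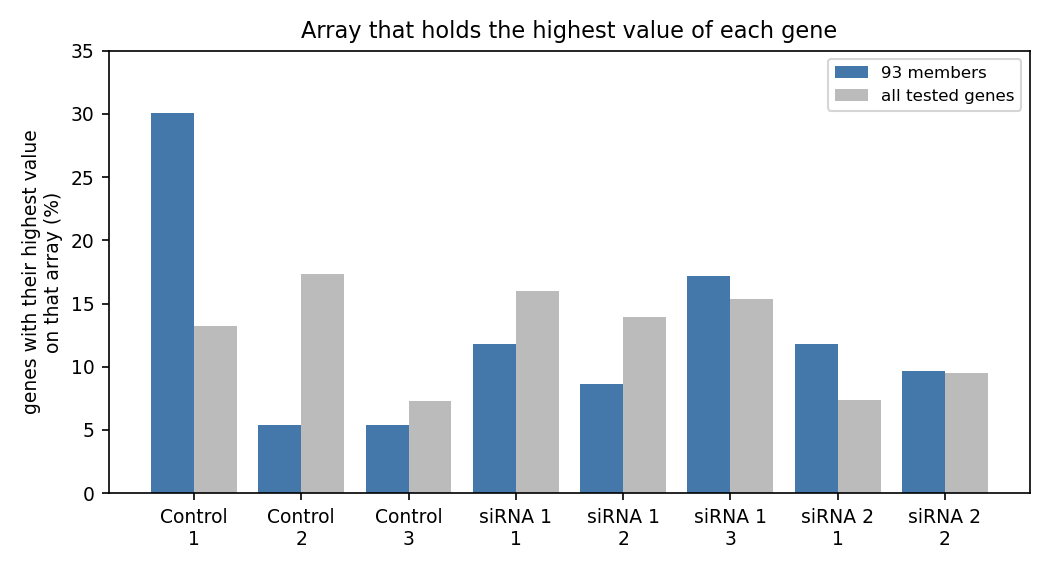
Share of genes (y axis, percent) whose highest value lay on each of the 8 arrays (x axis), for the 93 tested members and for all 22422 tested genes. The members' share is 30.1% on Control 1, against 13.2% of all genes.

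Because replicate 1 of each group shared slide 1, the differences were also taken within slides. On slide 1 the members' median difference from Control was -0.07 for siRNA 1 (32 of 93 positive) and -0.03 for siRNA 2 (35 positive). On slide 2 it was 0.08 for siRNA 1 (66 positive). On slide 3 it was 0.06 for siRNA 1 (67 positive) and 0.05 for siRNA 2 (65 positive). Of all 22422 genes, 12122 were positive for siRNA 1 and 11851 for siRNA 2 on slide 1. On slide 2, 11153 were positive for siRNA 1, and on slide 3, 13252 for siRNA 1 and 10817 for siRNA 2. The sign of the members' median therefore turned between slide 1, which held Control 1, and the other slides. Complexes I, III and IV turned in the same way. Complex II did not: for siRNA 1 it was 0.11 on slide 1 and -0.04 on slide 3. The ATP synthase was already positive on slide 1 for siRNA 2 (0.01). A contrast of slide 1 with the other slides, fitted beside the groups, took 5.99% of all genes at an adjusted p under 0.05 and 0 of the 93 members. At an unadjusted p under 0.05 it took 2 members, Cox4i2 (0.23) and Atp5e (0.25), the epsilon subunit of the ATP synthase head, against 15.5% of all genes.

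**Figure D5:**
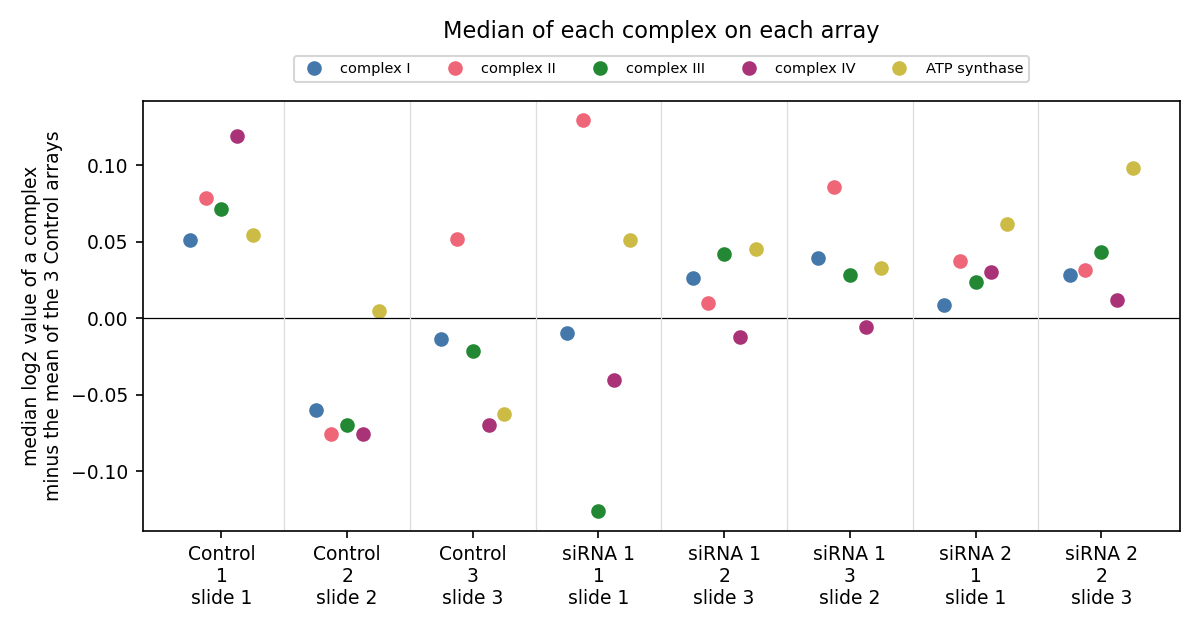
Median over the members of each complex of the log2 value minus the mean of the 3 Control arrays (y axis), for each of the 8 arrays (x axis, with its slide). All 5 medians are positive on Control 1, where complex IV is at 0.12, and 4 of 5 are negative on Control 2 and on Control 3.

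Among genes that serve the chain without being members, none passed the test either. Of 29 tested assembly factors of complexes II to IV and the ATP synthase, 21 had positive differences for both siRNAs (median 0.02), and none passed the test. Of all tested genes, 53.0% had positive differences. The 15 genes of complex I assembly, 8 of which are members, had a median of 0.03. The 18 citric acid cycle genes had a median of 0.04, the 17 glycolysis genes 0.07, and the 8 genes of adenine nucleotide and phosphate carriers and relatives 0.08, with none past the threshold in any list. Among 16 tested regulators of mitochondrial biogenesis the median was -0.03, and Nrf1, Gabpa and Esrra, which encode factors that bind the motifs printed above, differed by -0.07 ± 0.08 (SE), 0.08 ± 0.12 and -0.14 ± 0.11. The gene of this list with an unadjusted p under 0.05 was Tfb1m, a methyltransferase of the mitochondrial ribosome, at 1.24, 1.05 and 1.09 in Control, at 1.64, 1.28 and 1.45 in siRNA 1, and at 1.52 and 1.40 in siRNA 2. Its groups did not overlap, its difference was 0.33 ± 0.10, and its adjusted p in limma was 0.9998. Among 14 tested genes of cytochrome c and the quinone pool (median 0.02), somatic cytochrome c (Cycs) differed by 0.05 ± 0.08 and testis cytochrome c (Cyct) by 0.39 ± 0.10. Cyct was at -2.30, -2.61 and -2.47 in Control and between -2.15 and -1.91 in the siRNA arrays, which did not overlap, and its adjusted p was also 0.9998.

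None of the markers of other cell types passed the threshold in the comparisons of groups. For both siRNAs the median was -0.72 over 11 tested genes of primitive and visceral endoderm, -0.68 over 4 tested genes of mesoderm, 0.17 over 10 pluripotency genes, -0.09 over 6 of fibroblast feeder cells, -0.14 over 6 of cardiac and skeletal muscle, and -0.005 over 3 of germ cells. All 11 endoderm genes were negative for both siRNAs together. For siRNA 1 alone 8 were negative and 3 positive (median -0.27), and for siRNA 2 alone all 11 were negative (median -1.2). At an unadjusted p under 0.05 in limma, 4 of the 11 were taken for both siRNAs, 0 for siRNA 1 and 9 for siRNA 2. The shares of all genes were 3.58%, 3.51% and 3.36%. Between the siRNAs 6 of the 11 were taken, against 3.3% of all genes. The summed level of that list, in units of the array's 75th percentile, was 5.12 to 10.75 in Control. It was 5.50 to 9.26 in siRNA 1 and 3.34 to 3.36 in siRNA 2. The summed level of the mesoderm list was 7.18 to 8.71 in Control, 5.74 to 8.68 in siRNA 1 and 6.03 to 6.19 in siRNA 2. The part of these cell types in the values of the members was not tested.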

How the data were processed

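RNA of 8 samples was read on 1-colour Agilent arrays, and the titles gave the groups. The deposited scanner files hold intensity values (processed signal, median spot and background signal), extracted with Feature Extraction 10.7.3.1 and corrected for background, per the file headers. The deposited value table holds log2 values. In it the Control 2 column tracked the scanner data of Control 3 and the reverse (r of 0.9997 and 0.9998, against -0.0502 and -0.0483 for the named file), so the scanner file names were used. Both are Control, and the group fit does not depend on it.

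Control and outlier spots were left out, spots of a probe were averaged, and each array's 75th percentile was subtracted from the log2 signal. No spot was saturated. Accessions were matched to symbols through RefSeq (GRCm38.p6, unversioned): 26418 of 39429 probes matched. The array design's build is mm9, so coordinates here come from RefSeq alone. A gene took its probe with the highest mean and was tested if all arrays of 1 or more groups were flagged well above background. For 23 members with several tested probes, the signs of the difference agreed within 13 and differed within 10, with no gap over 0.3. For 10 members RefSeq names pseudogenes, which a probe might also read (Atp5c1, Atp5k, Atp5l, Atp5pb, Cox5b, Cox7c, Ndufa12, Ndufab1, Ndufs5, Uqcrh). Ndufb1, Ndufb4b and Ndufb4c had no matched probe.

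One limma 3.58.1 fit (lmFit, eBayes; R 4.3.3) covered the 3 groups over 22422 genes, with 5 residual degrees of freedom, Benjamini-Hochberg adjustment and a threshold of 0.05. A second fit added slide 1 as a term. The fits were tested on simulated data in which 200 of 22422 genes were changed. Of 2-fold changes, 67.2% were recovered for both siRNAs, 59.4% for siRNA 1, 52.2% for siRNA 2 and 49.6% between the siRNAs. Smaller changes were not simulated. The simulated noise was independent between arrays and held no slide effect. In the data, deviations of arrays that shared a slide correlated up to 0.698, so recovery on these arrays may differ. Members, gene lists and tests were chosen with earlier results of these data known. Genes were named by a rule: the smallest p-values in each complex and comparison, groups without overlap, members not above background, and isoform sets. Alternatives were other scalings, background corrections, filters, probe choices, array weights, blocks, and leaving out each array or slide 1. Python 3.11.15 with pandas 2.3.3 read the files. The values of 1 member are not reported here by name, and it is counted in the totals.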

Additional observations from a re-analysis of the deposited data

Results flagged for a closer look

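For 6 members every siRNA 1 array and every siRNA 2 array lay on opposite sides of the Control mean, which is 6.45% of the 93 tested members, against 4.53% of all genes. The share was thus near the background. Ndufa5 showed the pattern only by the probe used. By its other tested probe it differed from Control by -0.09 for siRNA 1 and -0.015 for siRNA 2. The fitted difference of siRNA 2 from siRNA 1 was 0.17 for Ndufa5, 0.11 for Ndufs5 and 0.11 for Uqcrc1, 0.10 for Cox6b1, 0.15 for Cox7b and -0.13 for Cyc1, on the log2 scale. In limma's test of that difference itself none of the 6 passed (adjusted p = 0.9998 for each). In each case arrays of at least one siRNA lay within the range of the 3 Control arrays. Groups of 2 or 3 arrays are too small for a test of single outlying samples, so the Control 1 values of Cox6a2 and Cox8b are given as values only.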

How the results depend on the processing

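No member passed the threshold in a comparison of groups under any alternative. Of 110 counts of members past the threshold under an alternative, all were 0 except 3 for slide 1 against the other slides, with 1 member under median scaling, 5 with normexp and quantile normalization and 3 without background correction. Of 115 medians 104 moved by less than 1 SD, that of the members' median between arrays of a group (0.0407). That SD is larger than the medians of the main fit, so a median that changed sign can count as not moved. For both siRNAs, leaving out 1 array gave medians from -0.00568 (without Control 2) to 0.0606 (without Control 1). For siRNA 1 this range was 0.000529 to 0.0607, with the same 2 arrays at its ends, and the median was -0.0276 with normexp and quantile normalization, 0.0665 without the arrays of slide 1, and -0.0709, 0.0794 and 0.0641 within slides 1, 2 and 3. For siRNA 2 it was -0.0284 within slide 1. Between the siRNAs it was 0.0729 under median scaling. For slide 1 it was 0.167 under median scaling, and -0.0114 (without Control 1) to 0.0588 with 1 array left out. Sdhc turned to -0.0314 with array weights, and ranged from -0.0557 without Control 2 to 0.2005 without Control 3. With normexp and quantile normalization together, Atp5h turned to -0.00463 and Atp5g3 to -0.000596. The cause was not tested. Whether replicate numbers pair the samples is not in the labels. By the scanner file names, the deviations of same-numbered arrays correlated between -0.042 and 0.698. Those of arrays that shared a slide correlated between 0.044 and 0.698. With Control 2 and Control 3 exchanged, as in the value table, same-numbered arrays would share a slide. With the replicate number of the scanner file names as a block, which mixes slides, 0 members were called. The medians were 0.0126 for both siRNAs, 0.0175 for siRNA 1, 0.0317 for siRNA 2 and -0.00155 between the siRNAs. With the slide as a block, the medians for both siRNAs were 0.0217 for complex I, 0.0508 for complex II and 0.0106 for complex III. They were -0.0016 for complex IV and 0.0664 for the ATP synthase. The median spot signal served for normexp and for no background correction.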

Other observations

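Among the 26 probes that lay over 4-fold above every other array on Control 1 were 3 more genes of energy metabolism in muscle, named after their values were seen. The 26 also held probes of genes not known for muscle (Olfr1506 and Vmn1r10, receptors of smell and pheromones, and the globin Hbb-bt). Other arrays had like numbers of probes over 4-fold above every other array, 21 on Control 2 and 31 on siRNA 1 replicate 2. A gene symbol was matched for 24 of the 26, for 11 of the 21 and for 9 of the 31. Ckmt2, the mitochondrial creatine kinase of heart and skeletal muscle, was at -1.51 on Control 1 and between -8.67 and -8.32 on the other 7 arrays, none of which was well above background. Mb, the oxygen carrier myoglobin, was at 0.14 on Control 1 and between -7.37 and -5.82 elsewhere, well above background on 1 of the other 7 arrays. Ppargc1a, a coactivator of respiratory chain genes, was at -5.50 on Control 1 and between -8.65 and -7.68 elsewhere, and was not well above background on any of the other 7. None of these genes met the background criterion on all arrays of any group, so none was tested.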
